A study of Mus musculus with 3 samples.

Results

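The genes described here are 10 regulators of pluripotency that are known from the inner cell mass of the mouse blastocyst: Pou5f1, Nanog, Esrrb, Tfcp2l1, Sall4, Zfp42, Tdgf1, Spic, Prdm14 and Utf1. They were chosen by name, and all 10 are among the 23154 gene symbols counted. The counts come from single cells of mouse embryos at embryonic day 3.5, in 3 libraries of 96 cell barcodes each, all of 1 group. Every embryo carried the Klf2-H2BmCherry allele, a histone reporter at the Klf2 locus; embryos were collected at embryonic day 2.5, grown in static and in shaking culture to the blastocyst stage and, once mCherry-positive, taken apart into cells that were picked by mouth pipette. The labels do not say which cell came from which culture, embryo or animal. Of 288 barcodes, 225 had at least 2000 genes with a count and are called cells. In each library they were ranked by the summed CPM (counts scaled to the total of the cell) of Krt8 and Krt18, the keratin pair of the outer epithelium, and divided into 3 parts of near equal size. The lowest part, keratin-low, was set against the highest, keratin-high, which asks which regulators are restricted to keratin-low cells and which persist in keratin-high cells.

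The blastocyst has an outer epithelium, the trophectoderm, which makes simple keratins and later forms the placenta, and an inner cell mass, which gives rise to the epiblast and the primitive endoderm. Pluripotency is held by a network of transcription factors in which POU5F1 (OCT4), NANOG and ESRRB bind many of the same genes, together with the co-receptor TDGF1 (Cripto) at the surface. Some of these genes are switched on long before the lineages part and are made in all cells of the early embryo.

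The keratin groups held 27, 21 and 26 cells in keratin-low and equal numbers in keratin-high of libraries 1, 2 and 3, with 29, 22 and 26 cells between. Keratin-high began at 1285, 2235 and 3982 CPM of summed keratins in libraries 1, 2 and 3, so its bound differed between libraries. Library totals ran between 27610866 and 54444536 counts, and median totals per cell between 286484 and 608733. The 18 trophectoderm markers of the list, which does not hold Krt8 or Krt18, summed to 564 ± 218 CPM in keratin-low and 3911 ± 1823 CPM in keratin-high cells (SD, n = 3 libraries), and 18 primitive endoderm markers to 1038 ± 162 and 2109 ± 1289 CPM. In library 2, whose keratin-high endoderm sum of 3447 CPM was the highest, Dab2 and Lrp2 supplied 2001 and 1113 CPM of it. By fold change, 9 of 14 primitive endoderm genes tested lay higher in keratin-low cells, with a median of 0.88 on the log2 scale. The keratin-high side carries the markers of trophectoderm, primitive endoderm genes lie on both sides, and the groups are called by their keratins alone. Sox2, a partner of POU5F1, was listed at 0 in all cells and could not be used.

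The keratin-low cells with barcodes 33 to 64 of library 1 stood apart as a group. They made up 22 of its 27 keratin-low cells. In those 22 ribosomal protein genes took a median of 2.49% of counts, against 19.4% in the 54 cells of library 1 with other barcodes. Actb, Gapdh, Eef1a1 and Ppia summed to a median of 812 CPM in the 22 cells and 6567 CPM in the 54. The median total of 287974 counts and 8195 genes in the 22 cells was not low. Not all 29 cells with these barcodes were alike. Ribosomal shares of the 22 ran from 0.643% up into the range of the 54 cells. The 6 middle cells had a median of 12.6%, and the 1 keratin-high cell had 30.2%. A low ribosomal share is also not special to these barcodes, since the 64 cells of library 2 had a median of 4.28%. The 4 other genes, however, summed to a median of 9855 CPM there. Results are therefore given for all 225 cells and for the 196 cells left without these 29 barcodes, with the 3 parts of library 1 taken again as 18 cells each; this second set was chosen after the data had been seen. Keratin-low of library 1 then reached up to 319 CPM of summed keratins, against 147 CPM over all cells. It held 9 cells of barcodes 1 to 32 and 9 of barcodes 65 to 96, against 2 and 3 over all cells. Most of its cells had thus been in the middle part over all cells. Which embryos or culture barcodes 33 to 64 of library 1 hold is not in the labels.

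The stretches upstream of 4 regulators are shown because they pair a gene that passed the test between the keratin groups with a gene that did not. These are the 250 bases before the start of Nanog (chr6:122707239-122707488, plus strand), Zfp42 (chr8:43307010-43307259, minus strand), Tdgf1 (chr9:110946159-110946408, minus strand) and Tfcp2l1 (chr1:118627695-118627944, plus strand), 5′ to 3′ along the gene, from RefSeq on GRCm38.p6. Capitals mark ATGCAAA, which reads TTTGCAT on the other strand. It is the octamer that POU factors recognise, ATGCAAAT, without its last base.
Nanog: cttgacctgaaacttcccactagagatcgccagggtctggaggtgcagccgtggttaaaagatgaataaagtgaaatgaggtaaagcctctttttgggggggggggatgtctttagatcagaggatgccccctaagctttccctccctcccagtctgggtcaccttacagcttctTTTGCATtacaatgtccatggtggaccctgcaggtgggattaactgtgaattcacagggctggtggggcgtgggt
Zfp42: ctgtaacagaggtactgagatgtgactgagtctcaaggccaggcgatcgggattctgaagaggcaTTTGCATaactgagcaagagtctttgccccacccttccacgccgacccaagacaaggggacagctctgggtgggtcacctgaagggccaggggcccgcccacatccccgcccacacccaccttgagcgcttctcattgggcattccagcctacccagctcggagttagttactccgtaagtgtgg
Tdgf1: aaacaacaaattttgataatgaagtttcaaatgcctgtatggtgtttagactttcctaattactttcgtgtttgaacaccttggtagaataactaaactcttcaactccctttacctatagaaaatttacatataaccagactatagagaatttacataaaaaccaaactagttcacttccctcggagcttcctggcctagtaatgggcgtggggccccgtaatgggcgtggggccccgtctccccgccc
Tfcp2l1: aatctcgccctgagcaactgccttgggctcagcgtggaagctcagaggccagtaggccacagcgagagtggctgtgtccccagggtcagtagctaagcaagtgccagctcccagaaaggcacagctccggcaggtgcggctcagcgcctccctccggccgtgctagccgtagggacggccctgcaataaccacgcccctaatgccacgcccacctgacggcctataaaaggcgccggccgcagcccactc
ATGCAAA was searched on both strands. The match, TTTGCAT as read along the gene, begins at -75 in Nanog and -185 in Zfp42. Among the 8 regulators in the RefSeq promoter table these 2 held it, as did 4.06% of all 27025 promoters of that length. The full ATGCAAAT was held by Zfp42 alone of the 8, and by 1.61% of all promoters. Of Nanog and Zfp42, only Nanog passed the test between the keratin groups, in the 196-cell set and not over all cells, as described next. The element TCAAGGTCA, which orphan nuclear receptors such as ESRRB recognise, was found on either strand in none of the 8 windows and in 0.366% of all promoters. A match is only a match of letters, and its absence says nothing about binding.

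Over all 225 cells no regulator passed the test, while over the 196 cells 5 did: Spic, Tdgf1, Esrrb, Nanog and Utf1 were higher in keratin-low cells. The test was edgeR's quasi-likelihood test on counts summed per library and keratin group, with the library as a block and Benjamini-Hochberg adjusted p below 0.05. Over all cells it called 19 of 12154 genes, 0.156%, and 1246 genes had an unadjusted p below 0.05; DESeq2 called 5 regulators on the same sums, with Prdm14 in the place of Utf1. Over the 196 cells it called 649 of 11796 genes, 5.5%, with 259 genes higher in keratin-low (2.2%) and 390 higher in keratin-high cells (3.31%); all 19 of the first fit were among the 649. The CPM of Nanog, Esrrb, Tdgf1, Spic and Prdm14 did not overlap between the groups in either cell set, as was so, in the same direction, for 5.57% of genes over all cells and 4.87% over the 196. Leaving out whole libraries moved these counts: without library 1 there were 406 genes, and Nanog, Esrrb, Tdgf1 and Spic passed, while the 196-cell set without library 3 gave 225 genes, and Nanog, Tdgf1 and Spic passed. With the 3 parts taken within each set of 32 barcodes instead, also chosen after seeing the data, the test called 1 regulator, Tdgf1, beside 0.488% of genes. Without the library block, neither cell set gave a called regulator.

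**Figure D1:**
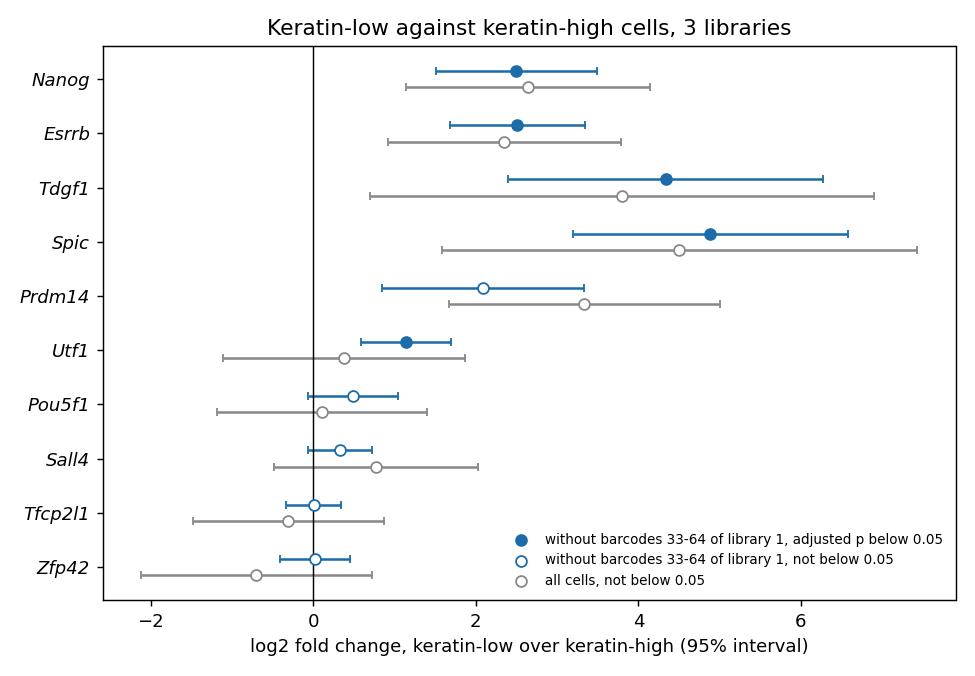
Log2 fold change of each regulator, keratin-low over keratin-high cells, with its 95% interval from edgeR's quasi-likelihood fit on 3 libraries; blue is the set of 196 cells, grey all 225 cells, and filled points have an adjusted p below 0.05. Spic and Tdgf1 lie farthest to the right at 4.88 and 4.33 in the 196 cells, and the intervals of Tfcp2l1 and Zfp42 straddle 0 in both sets.

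Spic, a gene of the ETS family best known from red pulp macrophages of the spleen and also made in early embryos (mm10 chr10:88674772-88685015), had 649, 260 and 323 CPM in keratin-low cells of libraries 1, 2 and 3 of the 196-cell set, against 86.6, 10.1 and 1.91 CPM in keratin-high cells. The middle groups had 388, 29.9 and 265 CPM. Keratin-low and keratin-high did not overlap, and library 1 kept the most in its keratin-high cells. In this set keratin-high began at 2274, 2235 and 3982 CPM of summed keratins in libraries 1, 2 and 3. The log2 fold change was 4.88 (SE 0.74; 29.5-fold) with an adjusted p of 0.00762 by edgeR's quasi-likelihood test. Its size depended on the libraries and cells used. It was 5.97 without library 1, 4.93 without library 2, 3.87 without library 3 and 3.04 with parts taken within sets of 32 barcodes. Over all cells without library 3 it was 2.74, and the 26 alternative settings ranged from 2.16 to 9.74. In keratin-high cells 1 cell alone held 49.4%, 74.3% and 76.3% of the Spic counts of libraries 1, 2 and 3, so most keratin-high cells lay far below the group's level. With all cells, library 1 had 196 CPM in keratin-low and 111 CPM in keratin-high cells, and the log2 fold change was 4.51 with an adjusted p of 0.237.

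Tdgf1 encodes Cripto, the co-receptor through which NODAL signals (chr9:110939603-110946158). It had 513, 397 and 306 CPM in keratin-low cells of libraries 1, 2 and 3, against 83.6, 34.2 and 1.36 CPM in keratin-high cells of the 196-cell set. The middle groups, with 133, 62.8 and 77.0 CPM, lay nearer to the keratin-high side, and the outer groups did not overlap. The fit gave a log2 fold change of 4.33 (SE 0.84; 20.2-fold; adjusted p 0.0226 by edgeR's quasi-likelihood test). This too moved with the libraries, to 5.46 without library 1, 4.90 without library 2 and 3.18 without library 3. Over all cells without library 3 it was 1.94, and the 26 alternative settings ranged from 1.93 to 8.10. A single cell held 66.9% of the keratin-high counts of library 1. Over all cells, where keratin-low cells of library 1 had 106 CPM and its keratin-high cells 83.1 CPM, the value was 3.80 with an adjusted p of 0.355. The pseudogenes Tdgf1-ps1 and Tdgf1-ps2 are near copies that could share its reads.

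Esrrb, an orphan nuclear receptor that stands in for NANOG in cultured stem cells (chr12:86361117-86521628), had even levels across libraries. Keratin-low cells had 52.0, 56.1 and 49.7 CPM in libraries 1, 2 and 3 and keratin-high cells 9.32, 11 and 8.10 CPM, with no overlap. This is a log2 fold change of 2.51 (SE 0.36; 5.70-fold; adjusted p 0.00620 by edgeR's quasi-likelihood test). In all cells the keratin-low level of library 1 was 33.7 CPM and the log2 fold change 2.35, with an adjusted p of 0.206. Leaving library 3 out of the 196-cell set gave 2.51 with an adjusted p of 0.0612, which misses the threshold. Parts taken within sets of 32 barcodes gave 1.75 with an adjusted p of 0.314.

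Nanog, the homeobox factor that marks the future epiblast (chr6:122707489-122714633), had 97.3, 419 and 120 CPM in keratin-low cells of libraries 1, 2 and 3, and 23.6, 30.5 and 38.4 CPM in keratin-high cells. Library 2 was several times above the others in keratin-low cells and, with 270 CPM against 44 and 93.4 CPM in libraries 1 and 3, in the middle group. Keratin-low and keratin-high did not overlap. It differed by a log2 fold change of 2.5 (SE 0.43; 5.66-fold; adjusted p 0.0133 by edgeR's quasi-likelihood test), and over all cells 2.64 with an adjusted p of 0.173. Without library 2 the 196-cell value was 1.85, and parts taken within sets of 32 barcodes gave 1.22. Over all cells, 1 cell with 1297 CPM supplied 68.5% of the Nanog counts of the keratin-low cells of library 1. That cell is not in the 196-cell set. The pseudogenes Nanog-ps1 and Nanog-ps2 could share its reads.

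A level in keratin-high cells under 25% of that in keratin-low cells in every library is called restricted here, and one of at least 50% persisting. Among the called genes of the 196-cell set, Spic, Tdgf1 and Esrrb were restricted, with 0.591% to 13.3%, 0.444% to 16.3% and 16.3% to 19.6% of the keratin-low level. Nanog, at 24.3%, 7.28% and 32% in libraries 1 to 3, was just outside that bound and counts as reduced. Over all cells no regulator was called, and Spic, Tdgf1 and Esrrb stood at 56.4%, 78.2% and 27.3% in library 1, outside that bound. There Prdm14, with 3.47% to 18.9%, lay under it in every library.

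Utf1, a chromatin-bound factor of stem cells (chr7:139943789-139945112), was also reduced. Its keratin-low cells had 532, 68.2 and 188 CPM in libraries 1, 2 and 3 of the 196-cell set, and its keratin-high cells 216, 52.8 and 59.6 CPM. Each library was higher on the keratin-low side, yet the groups overlapped because library 1 was high throughout. Barcodes 33 to 64 of library 2 had 2.72 CPM in keratin-low and 0 CPM in keratin-high cells, against 184 and 66.6 CPM in barcodes 1 to 32. In library 3 the same barcodes had 19.7 and 0.545 CPM, against 204 and 94.2 CPM. They held 11 of 21 keratin-low and 4 of 21 keratin-high cells of library 2, and 6 and 11 of 26 in library 3. The groups thus differed in barcodes as well as in keratins. A log2 fold change of 1.14 (SE 0.24; 2.21-fold) had an adjusted p of 0.0322 by edgeR's quasi-likelihood test. The call was lost without library 1 (log2 fold change 1.01, adjusted p 0.220) and without library 3 (0.94, adjusted p 0.210), and held without library 2 (1.49, adjusted p 0.000145). Over all cells library 1 ran the other way, with 107 CPM in keratin-low and 232 CPM in keratin-high cells, and the log2 fold change was 0.38 (adjusted p 0.875). With parts taken within sets of 32 barcodes it was 0.86 (adjusted p 0.339 by edgeR's quasi-likelihood test).

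Prdm14, a PR-domain factor of naive cells and germ cells (chr1:13113457-13127163), was sparse. In the 196-cell set it had 22.5, 48.2 and 16.1 CPM in keratin-low cells and 10.7, 9.09 and 2.56 CPM in keratin-high cells of libraries 1, 2 and 3. The groups did not overlap, but 80.3% of the keratin-low counts of library 2 came from 1 cell. Its log2 fold change of 2.08 (95% interval 0.84 to 3.33) missed the threshold with an adjusted p of 0.0656 by edgeR's quasi-likelihood test. With all cells it was 3.34 (adjusted p 0.128), and library 1 had 417 CPM in keratin-low cells, of which 64.4% came from 1 cell with 2628 CPM.

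Of the 5 regulators that did not pass in the 196 cells, 4 kept at least 61.9% of their keratin-low level in keratin-high cells of every library, which is persisting by the bound above: Pou5f1, Sall4, Tfcp2l1 and Zfp42. Zfp42 (Rex1), a zinc finger relative of YY1 long used as a stem cell marker (chr8:43295063-43306980), had 387, 313 and 199 CPM in keratin-low and 360, 267 and 257 CPM in keratin-high cells of libraries 1, 2 and 3. The groups overlapped throughout, and the log2 fold change was 0.02 with a 95% interval of -0.41 to 0.45. Over all cells library 1 had 78.4 CPM in keratin-low and 365 CPM in keratin-high cells, and the log2 fold change was -0.70 (-2.11 to 0.72).

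Tfcp2l1, a grainyhead-like factor downstream of LIF in mouse stem cells (chr1:118627945-118685168), had 183, 467 and 350 CPM in keratin-low and 189, 489 and 338 CPM in keratin-high cells of libraries 1, 2 and 3. Libraries differed from each other far more than keratin groups within a library. Its log2 fold change was 0.01 (95% interval -0.33 to 0.34) in the 196 cells and -0.30 (-1.48 to 0.87) in all cells, where the keratin-low cells of library 1 had 82.3 CPM.

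Pou5f1, which encodes OCT4, the POU factor at the head of the network (chr17:35506018-35510772), had 122, 34.6 and 121 CPM in keratin-low and 75.4, 28.5 and 90.3 CPM in keratin-high cells. Each library was somewhat higher on the keratin-low side, and the groups overlapped. Its difference was 0.49 on the log2 scale (95% interval -0.06 to 1.05; adjusted p 0.318 by edgeR's quasi-likelihood test) in the 196 cells and 0.11 (-1.18 to 1.4) in all cells. Gene Gm19553 on the other strand shares 14.1% of its exonic bases, and without a stated strand setting their reads cannot be told apart.

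Sall4, a zinc finger factor that works with OCT4 and with the NuRD complex (chr2:168748332-168767943), had 132, 281 and 240 CPM in keratin-low and 107, 243 and 183 CPM in keratin-high cells of libraries 1, 2 and 3. Its groups overlapped, with each library a little higher in keratin-low cells. Keratin-low over keratin-high gave a log2 fold change of 0.33 (95% interval -0.07 to 0.73; adjusted p 0.351 by edgeR's quasi-likelihood test), and over all cells 0.77 (-0.49 to 2.02), where library 1 had 361 CPM in keratin-low and 126 CPM in keratin-high cells. At 34.9% in that library, Sall4 is not persisting over all cells. Gm14261 on the other strand shares 9.50% of its exonic bases.

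**Figure D2:**
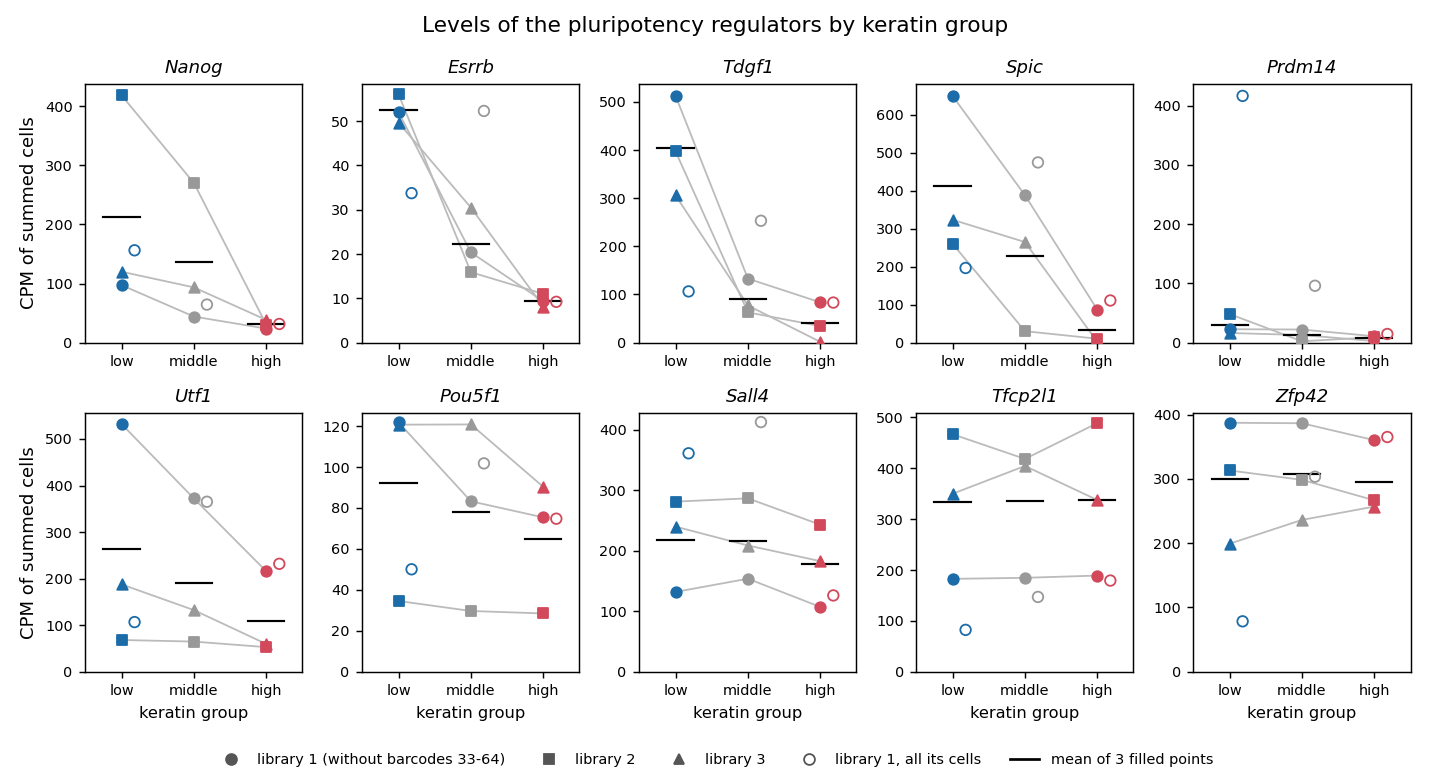
CPM of each regulator in counts summed over the cells of a keratin group, with 1 filled symbol per library for the 196-cell set, open circles for library 1 with all its cells, and bars for the mean of the 3 filled symbols. Esrrb falls in every library to between 8.10 and 11 CPM in keratin-high cells, Tdgf1 is already low in the middle group, and Tfcp2l1 and Zfp42 stay level while their open circles lie below the rest on the keratin-low side.

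Detection was also counted cell by cell. To make cells of unequal depth comparable, each was thinned to 50000 counts and the shallower ones were left out, which kept 58 keratin-low and 60 keratin-high cells of the 196-cell set. Spic was detected in 55 of 58 keratin-low and 9 of 60 keratin-high cells, and Tdgf1 in 50 and 8. Nanog was detected in 48 and 26, and Esrrb in 39 and 14. Zfp42, by contrast, was found in 55 of 58 keratin-low and 59 of 60 keratin-high cells, Tfcp2l1 in 57 and 60, Sall4 in 57 and 58, and Pou5f1 in 54 and 49. Utf1 was found in 17 of 17, 8 of 18 and 13 of 23 keratin-low cells and in 13 of 16, 16 of 20 and 11 of 24 keratin-high cells of libraries 1, 2 and 3, so the libraries differed in direction. Prdm14 was seen in 21 and 9. Over all cells Spic was detected in 56 of 66 keratin-low and 15 of 69 keratin-high cells, Tdgf1 in 52 and 13, Nanog in 52 and 33, Esrrb in 40 and 16 and Prdm14 in 30 and 13. Zfp42 was there detected in 54 and 68, Tfcp2l1 in 58 and 69, Sall4 in 63 and 67, Pou5f1 in 58 and 57 and Utf1 in 35 and 48.

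**Figure D3:**
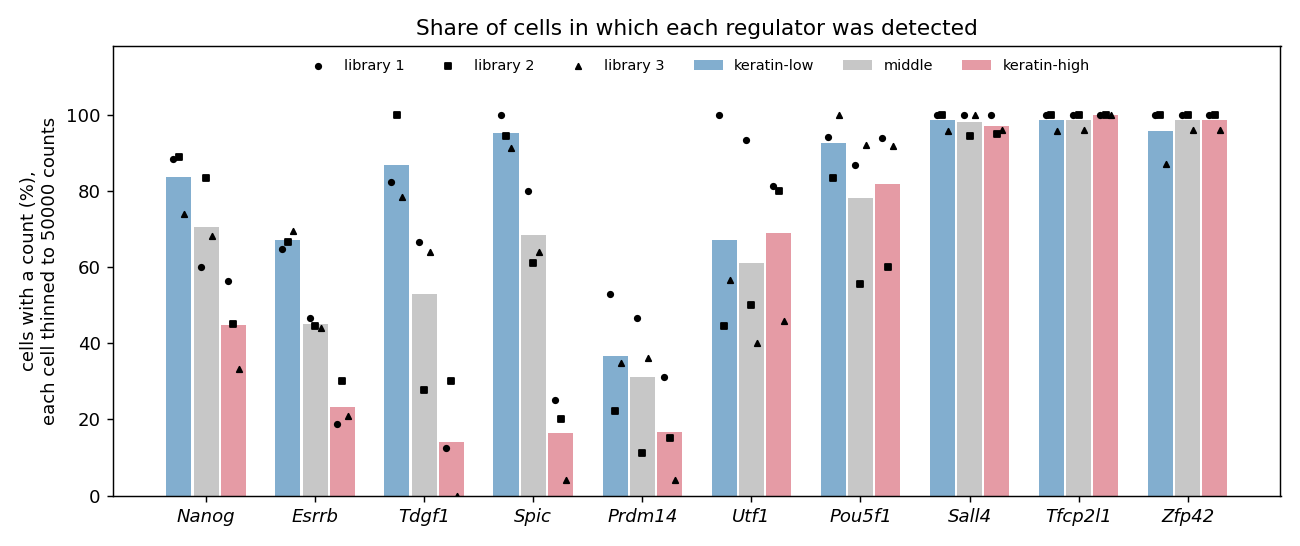
Percent of cells with at least 1 count after thinning each cell to 50000 counts, in keratin-low, middle and keratin-high cells of the 196-cell set; bars are means of 3 libraries and symbols the libraries. Spic averages 95.2% in keratin-low and 16.4% in keratin-high cells, while Tfcp2l1, Zfp42 and Sall4 stay at or above 87.0% in every library and group.

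In library 3 Tdgf1 was found in 0 of 24 thinned keratin-high cells, and by the floor of 3 counts a share of up to 12.5% of cells with a count at this depth is allowed. Spic was found in 1 of 24, or 4.17% (exact 95% interval 0.105% to 21.1%, counting error only). Unthinned, 53.8% and 26.9% of its keratin-high cells had at least 1 count of Tdgf1 and of Spic. Genes that these cells should lack, from the blood, fibroblast and cumulus lists, reached at most 9.41% of the 202 thinned cells of all 3 libraries, for Fshr. The 2 shares in library 3 lie below that level and are not read as expression. In libraries 1 and 2, Tdgf1 was found in 2 of 16 and 6 of 20 thinned keratin-high cells, and Spic in 4 of 16 and 4 of 20.

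For Tdgf1, Spic, Nanog and Esrrb, few keratin-high cells reached the level of a typical keratin-low cell. At or above the keratin-low median of their library were 0 of 65 keratin-high cells for Tdgf1, 1 for Spic, 5 for Nanog and 5 for Esrrb, against 20 for Pou5f1, 23 for Sall4, 26 for Utf1, 37 for Tfcp2l1 and 40 for Zfp42. Prdm14 had 50, but its keratin-low median was 0 in libraries 2 and 3. Over all cells 6 of 74 keratin-high cells reached that level for Tdgf1, 8 for Spic, 9 for Esrrb and 13 for Nanog, against 36 for Sall4, 39 for Pou5f1, 49 for Utf1, 52 for Tfcp2l1 and for Prdm14, and 54 for Zfp42. The 5 Nanog cells of the 196-cell set include 1 of library 2 with 1054 CPM. A thinned keratin-low cell held on average 8.22 ± 0.53 of the 10 regulators, a middle cell 7.03 ± 0.76 and a keratin-high cell 5.62 ± 0.65 (SD, n = 3 libraries). Over all cells the same averages were 7.60 ± 0.56, 7.16 ± 0.98 and 5.77 ± 0.86.

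**Figure D4:**
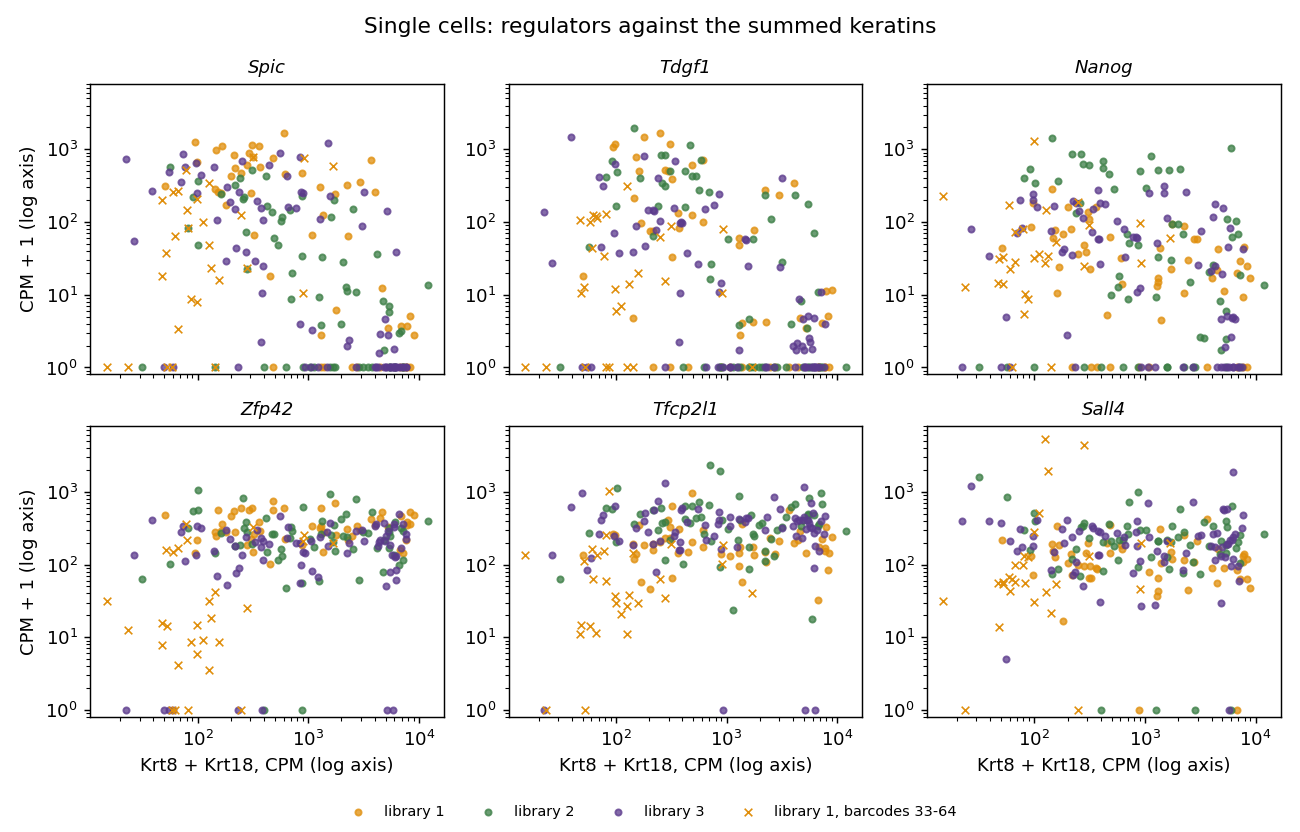
Single cells of the 3 libraries, with summed Krt8 and Krt18 CPM on the horizontal and CPM + 1 of 6 regulators on the vertical axis, both on log scales; crosses are barcodes 33 to 64 of library 1. Spic and Tdgf1 drop towards 0 CPM in the cells richest in keratin, and Nanog thins out with single cells up to 1054 CPM remaining. Zfp42, Tfcp2l1 and Sall4 run level apart from the crosses at low keratin. Most of these crosses lie low for Zfp42 and Tfcp2l1, with single ones up to 358 and 1022 CPM. For Sall4 they scatter up to 5251 CPM.

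Ranked cell by cell within a library, the level of Spic followed the keratins most closely. Spearman's rho with the summed keratins, averaged over libraries in the 196-cell set, was -0.63 for Spic, -0.56 for Tdgf1, -0.42 for Esrrb and -0.35 for Nanog. It was -0.22 for Pou5f1, -0.20 for Utf1, -0.13 for Sall4, -0.12 for Prdm14, 0.00 for Tfcp2l1 and 0.07 for Zfp42. Over all 225 cells Spic stood at -0.47, Tdgf1 at -0.46, Esrrb at -0.37, Nanog at -0.29 and Prdm14 at -0.16. Pou5f1 was there at -0.053, Sall4 at -0.017, Utf1 at 0.045, Tfcp2l1 at 0.14 and Zfp42 at 0.23. Cells of a library share its depth and preparation, so these are descriptions only; rho of Nanog with the total count of the cell was 0.36.

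Pairs of regulators were also ranked against each other inside the keratin-low group. Tfcp2l1 with Tdgf1 was the pair whose rho was highest in its lowest library of the 196-cell set, at 0.38, 0.27 and 0.31 in libraries 1, 2 and 3. Spic and Tdgf1, the 2 with the largest folds between keratin groups, had -0.26, -0.20 and 0.14 among keratin-low cells. Nanog and Sall4 were at -0.08, -0.35 and -0.22. Over all cells the pair highest by that measure was Tfcp2l1 with Zfp42, at 0.48, 0.51 and 0.33, and Spic with Tdgf1 gave 0.44, -0.20 and 0.14. With 18 to 27 cells per library, values of this size are not findings.

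Genes whose level across all kept cells was most like that of a regulator were looked for among genes with a count in at least 30% of cells of every library. Utf1 was nearest to Cacybp, with a mean rho of 0.73 over 3 libraries, and Spic to Ppm1a with 0.70. Tdgf1 was nearest to Tdh with 0.65, Zfp42 to Psma4 with 0.50 and Pou5f1 to Rpl5 with 0.47. Nanog was nearest to Dppa2 with 0.45, Esrrb to Spic with 0.44, Tfcp2l1 to Xpnpep1 with 0.40 and Sall4 to Hdgf with 0.28. In the 196 cells the nearest gene was again Cacybp, Ppm1a, Tdh, Psma4, Rpl5, Dppa2 and Spic for the first 7 of these regulators, but Yars with 0.34 for Tfcp2l1 and Dbf4 with 0.33 for Sall4. Prdm14 was detected in too few cells for this comparison.

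The keratin-low cells were then split at the median of 5 regulators of primitive endoderm, Gata6, Gata4, Sox17, Sox7 and Pdgfra, which asks whether the pluripotency regulators part along that axis. None passed edgeR's quasi-likelihood test, and neither did any of 10798 genes (0%; 290 with an unadjusted p below 0.05); DESeq2 called 57 genes and no regulator. In the 196-cell set the level of Tdgf1 was 955, 449 and 501 CPM in cells low in the endoderm regulators and 188, 363 and 74.8 CPM in cells high in them, in libraries 1, 2 and 3. Prdm14 had 31, 101.4 and 21.6 CPM in cells low in the endoderm regulators and 16.3, 6.30 and 9.62 CPM in cells high in them. For both genes those groups did not overlap, as for 3.37% of genes tested in that set and direction. The log2 fold change of Tdgf1 was 1.72 (95% interval 0.87 to 2.57; adjusted p 0.261 by edgeR's quasi-likelihood test) there and 1.08 (-0.39 to 2.55; adjusted p 0.996) with all cells. Prdm14 gave 1.86 (0.23 to 3.49, adjusted p 0.698 by edgeR's quasi-likelihood test) and, with all cells, 0.76 (-3.46 to 4.99, adjusted p 0.996). With all cells, library 1 ran the other way for Prdm14. It had 60.0 CPM in cells low and 721 CPM in cells high in the endoderm regulators. Nanog gave -0.34 (-0.89 to 0.20) in the 196 cells and 0.56 (-0.86 to 1.99) in all cells, so its sign differed between the cell sets. It turned in other settings too. Libraries 2 and 3, the same in both sets, differed in direction. They had 416 and 105 CPM in cells low in the endoderm regulators and 391 and 137 CPM in cells high in them.

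Beyond the 10 regulators, 30 other genes of the pluripotency network were listed. Of these 25 were tested, and in the 196 cells 10 were higher and 2 lower in keratin-low cells, beside the 5.5% of all genes called in that set; the list's median log2 fold change was 0.92, against 0.00 over all genes tested. The largest changes were in Zscan10, a zinc finger factor (3.71), Pecam1, an adhesion molecule of the inner cells (3.0), and Klf2, the reporter locus (2.17). Gdf3, a TGF-beta family ligand, had 1.85 and Tet1, an enzyme that oxidises methylated cytosine, 1.63, while Dnmt3l, a cofactor of DNA methylation, fell by 1.69 in keratin-low cells. Over all cells none of the 25 was called, with a median of 0.82.

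Among 17 partners and cofactors tested, 3 were higher in keratin-low cells of the 196-cell set, where 2.2% of all genes were, namely the deacetylase Hdac1 (log2 fold change 1.37), the coactivator Ncoa3 (1.26), which binds ESRRB, and the corepressor Trim28 (0.98). Socs3, the feedback inhibitor of LIF signalling, was the 1 of 9 genes of the LIF and STAT3 list that was called, with 3.86: it had 10.6, 56.3 and 8.67 CPM in keratin-low and 1.33, 3.80 and 0.352 CPM in keratin-high cells of libraries 1, 2 and 3. None of 10 genes of Nodal signalling and none of 14 paralogs of the 10 regulators was called, with medians of 0.11 and -0.32; beside 5.5% of all genes called, a count of 0 in lists this short is near the background. Over all cells no gene of these 4 lists was called.

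Trophectoderm markers ran the other way. In the 196 cells 13 of 16 tested were lower in keratin-low cells, among them Tspan8 (-6.60) and Id2 (-5.95), beside 3.31% of all genes, and over all cells 4 of 17, beside 0.156% called in either direction. Of 14 primitive endoderm genes in the 196 cells, Col4a1 (3.09), Col4a2 (2.99), Pdgfra (2.76) and Lamb1 (2.27) were higher in keratin-low cells, as were 2.2% of all genes. Dab2 (-4.02) and Lrp2 (-3.83), genes of endocytosis, were among the 3 that were lower there, as were 3.31% of all genes. Over all cells none of the 14 was called. The share of these other lists in the levels of the regulators was not tested.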

How the data were processed

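Single-cell RNA of mouse embryos at embryonic day 3.5 was counted in 3 libraries, named replicates 1 to 3 in the labels. The deposited values are whole-number counts per gene symbol and cell barcode, which the authors did not normalize. Per the submitters' processing notes, CASAVA 1.8, HISAT2, HTSeq and build mm10 were used. The annotation, strand setting and use of molecular identifiers are not stated there. Per the labels' protocols, reverse transcription tagged each cell and each molecule with a sequence of 8 nt, and 3′ ends were sequenced; levels are not compared between genes.

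Barcodes with at least 2000 genes were retained as cells. Doublets were not called, since each cell was picked singly. All libraries use the same 96 barcodes; cells of equal barcode in 2 libraries had median correlations of 0.628 to 0.665, and all pairs 0.628 to 0.652. Counts were summed per library and keratin group, or per side of the median of the endoderm regulators within keratin-low cells, filtered with filterByExpr, scaled by TMM and tested with edgeR 4.0.16 (R 4.3.3). The library was a block, since both groups come out of the same library. Krt8, Krt18 and the 5 endoderm regulators that made the groups are left out of counts of called genes. The groups were drawn on the cells that were then tested, and p-values do not include that step. The labels name no separate cultures or animals behind the libraries, so the spread behind the p-values is that between 3 libraries and may be only technical. DESeq2 1.42.0 was an alternative, and the fits were tested on simulated data. Intervals and floors of 3 counts cover counting error only.

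The members and lists were chosen with earlier results of these data known. The text names all 10 members, per list at most 6 called genes by absolute fold change, and per member the nearest of 3 like genes. Coordinates and overlaps of exons are those of GENCODE M21 on mm10, promoters those of RefSeq.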

Additional observations from a re-analysis of the deposited data

Results flagged for a closer look

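Barcodes with fewer than 2000 genes, which enter no comparison, still held counts of the 10 regulators. There were 51 such counts in 13 barcodes of replicate 1, 260 in 32 barcodes of replicate 2 and 216 in 18 barcodes of replicate 3, each above the 3 counts that an observation of 0 allows. Tfcp2l1 supplied 160 of the 260 in replicate 2, Zfp42 132 of the 216 in replicate 3 and Utf1 35 of the 51 in replicate 1. These barcodes held 47251, 92365 and 180100 counts in all in replicates 1, 2 and 3.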

How the results depend on the processing

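The count of genes called between keratin-low and keratin-high cells ranged widely around the 19 over all cells. It was 883 with DESeq2, 2 with RLE factors, 165 without a filter on low counts, 0 without the replicate block, 81 with thinned cells, 225 without deep cells and 0 at 4000 genes per cell. It was 90 with 2 parts, 0 with 4 parts, 0 by Krt8 alone and 57 by Krt18 alone. Barcodes 1 to 32, 33 to 64 and 65 to 96 alone gave 269, 276 and 74. The last 2 lack a keratin-high sum of library 1 and of library 3, and leave those libraries out whole. Barcodes 33 to 64 thus rest on libraries 2 and 3, and barcodes 65 to 96 on libraries 1 and 2. Leaving out each replicate gave 17 to 406. Regulators called moved from 0 to 5 with DESeq2, to 2 without the filter, to 2 without deep cells, to 4, 3 and 2 in the 3 barcode sets, and between 0 and 4 without one replicate; without replicate 1 they were Nanog, Esrrb, Tdgf1 and Spic.

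The following were chosen after seeing the data. Parts taken within sets of 32 barcodes gave 59 genes and 1 regulator, Tdgf1. Without barcodes 33 to 64 of replicate 1 there were 649 genes and 5 regulators. In that set DESeq2 gave 1587 and 6, thinned cells 703 and 5, 2 parts 620 and 4, parts within barcode sets 785 and 4, and no replicate block 6 genes and 0 regulators. Leaving out replicate 2 or 3 there gave 225 to 808 genes and 3 to 5 regulators; without replicate 3, Esrrb and Utf1 were not called. Between keratin-low cells split by endoderm regulators, DESeq2 called 57 genes and the other alternatives 0, with no regulator called. The fitted log2 fold changes of Nanog, Esrrb, Tdgf1, Spic and Prdm14 were above 0 in all 26 alternatives. That of Prdm14 was lowest, at 0.53, over all cells with parts taken within sets of 32 barcodes. There library 1 had 34.4 CPM of Prdm14 in keratin-low and 217 CPM in keratin-high cells. Libraries 2 and 3 ran the other way, with 52.1 and 15.6 CPM in keratin-low and 7.42 and 7.19 CPM in keratin-high cells. The replicate block pairs sums of the same library, so p-values without it include the differences between libraries.

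Signs turned only for values that were not called. Between keratin groups, Utf1 gave -0.17 by Krt8 alone. Tfcp2l1 gave 0.21 in barcodes 1 to 32, 0.32 in barcodes 65 to 96, 0.079 with parts taken within sets of 32 barcodes and 0.0080 without barcodes 33 to 64 of replicate 1. Sall4 gave -0.010 in barcodes 1 to 32, -0.41 in barcodes 33 to 64 and -0.63 with parts taken within sets of 32 barcodes. Pou5f1 gave -0.30 in barcodes 65 to 96. Zfp42 gave 0.12 in barcodes 65 to 96, 0.033 with parts taken within sets of 32 barcodes and 0.019 without barcodes 33 to 64 of replicate 1. Between keratin groups, also without barcodes 33 to 64 of replicate 1, Tfcp2l1 gave 0.015 without replicate 2, 0.042 without replicate 3, 0.044 with DESeq2, 0.074 with thinned cells, 0.050 with 2 parts in place of 3, 0.012 without the replicate block and 0.060 with parts taken within sets of 32 barcodes. Zfp42 gave 0.27 without replicate 3, 0.056 with DESeq2, 0.043 with thinned cells, 0.054 without the replicate block and 0.0072 with parts taken within sets of 32 barcodes. Over all cells, leaving out each replicate gave -0.15 to 0.35 for Pou5f1 and -0.38 to 1.01 for Utf1. Between the sides of the endoderm split, Pou5f1 gave -0.061 with DESeq2, -0.060 with RLE factors, -0.029 without the filter on low counts, -0.24 with thinned cells and -0.029 at 4000 genes per cell. Tfcp2l1 gave -0.042 with DESeq2, -0.042 with RLE factors, -0.013 without the filter on low counts, -0.028 with thinned cells, -0.00087 without deep cells and -0.013 at 4000 genes per cell. Prdm14 gave -2.45 without the replicate block. Sall4 gave 0.33 with thinned cells and 0.90 without deep cells. Spic gave -0.062 with thinned cells, -0.0052 without deep cells, -0.30 by Gata6 alone and -0.18 without barcodes 33 to 64 of replicate 1. Nanog gave -0.023 without deep cells and -0.34 without barcodes 33 to 64 of replicate 1. Zfp42 gave -0.26 by Gata6 alone. Leaving out each replicate there gave -0.27 to 1.12 for Nanog, -0.035 to 0.31 for Spic, -0.026 to 0.0043 for Pou5f1, -0.32 to 0.40 for Tfcp2l1, -1.36 to 2.45 for Prdm14 and -0.43 to 0.14 for Esrrb. The causes were not tested. Thinned to 20000 counts, keratin-low cells held 6.24 and keratin-high cells 4.82 regulators on average, against 7.60 and 5.77 at 50000.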
